A study of Homo sapiens with 4 samples.

Results

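The genes described here are 52 genes of DNA replication and of the passage from G1 into S phase, read in modified colorectal cancer cell lines. They were chosen by symbol and each was read from 1 probe set, the brightest by mean level among those annotated to that gene alone. All 52 were found, of 19775 genes in all, and all 52 had a level of at least 6 on every array. RNA was measured on 4 Affymetrix arrays, with 1 array for each of the samples titled HCT116-CDX1, HCT116-Vec, LS174T-siCDX1 and LS174T-siVec. HCT116 came from a human colorectal carcinoma and LS174T from a human colon adenocarcinoma that makes mucin. The names were read as raised CDX1 and its vector control in HCT116, and as lowered CDX1 and its vector control in LS174T. CDX1 encodes a homeobox factor that helps set the identity of intestinal epithelial cells. The labels gave neither the constructs, the number of clones nor the state of the cultures.

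A cell copies its genome once per division. In G1 the origin recognition complex, CDC6 and CDT1 load the MCM2-7 helicase onto origins, and geminin blocks a repeat of this loading later in the cycle. At the start of S phase the kinases CDC7 and CDK2 turn the helicase on together with CDC45 and the GINS complex, and polymerases, the sliding clamp PCNA and its loader then copy the strands. Many of these genes are switched on by E2F transcription factors once the retinoblastoma protein is phosphorylated, so their RNA is high in dividing cells and low in cells that have left the cycle.

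Levels are RMA values in log2, used as deposited, and array medians lay between 7.04 and 7.06. A gene was taken as measured in a comparison where the brighter of the 2 arrays was at least 6, and "rose" and "fell" are used of measured genes that differed by at least 1 on the log2 scale, which is 2-fold. With 1 array per group there was no replicate check on any difference within a pair, no p-value was computed for it, and precision is limited by how few arrays there are. As a technical yardstick, chosen after the values were seen, the 18 spike-in probe sets differed by at most 0.35 in the HCT116 pair, 0.17 in the LS174T pair and 0.36 between the vector arrays. The CDX1 probe set read 8.24 on the array labelled HCT116-CDX1 and 8.21 on HCT116-Vec, so it did not show the rise that the label states. It read 9.06 on LS174T-siCDX1 and 10.46 on LS174T-siVec. Directions in the HCT116 pair therefore rest on the label. In whole cultures a smaller share of cells in S phase and less RNA per cell cannot be told apart. The 10 fixed markers of colorectal epithelium, such as EPCAM and KRT18, were at 6 or more on all 4 arrays. This floor lies under the array medians, and 6 of 7 fibroblast markers also reached it on each array. On HCT116-Vec, CDH17 read 6.19, LGALS4 6.36 and VIL1 7.04, while EPCAM read 12.82 and KRT18 13.37. As for other cell types, 7 fibroblast markers summed to 49.7 on the array labelled HCT116-CDX1, 49.2 on HCT116-Vec, 49.2 on LS174T-siCDX1 and 49.1 on LS174T-siVec, with LUM under 6 on each. The 5 leukocyte markers that were read, of 7 listed, summed to 33.1, 33.0, 40.6 and 39.5 on the same arrays, and 5 endothelial markers to 34.1, 33.8, 34.0 and 33.9. Within the LS174T pair 3 of the 4 measured leukocyte markers were higher on LS174T-siCDX1 by more than the largest spike-in difference, and the median of the 4 was 0.29, with CD2 at -0.05. The higher leukocyte sums of LS174T came with the lysozyme gene LYZ, at 11.74 on LS174T-siCDX1 and 11.25 on LS174T-siVec, against 5.21 on the array labelled HCT116-CDX1 and 4.97 on HCT116-Vec.

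These 4 promoters belong to the extremes of the HCT116 pair: POLE2 and GMNN were the members with the largest falls on the array labelled HCT116-CDX1, and POLE and MCM2 those with the highest differences, both of which lay within the largest spike-in difference. Each window runs from 250 bases before to 50 bases after a gene start of RefSeq, assembly GRCh38.p14, and is written 5' to 3' on the strand of the gene. POLE2 lies at chr14:49688165-49688464 on the minus strand, GMNN at chr6:24774687-24774986 on the plus strand, MCM2 at chr3:127598161-127598460 on the plus strand and POLE at chr12:132687293-132687592 on the minus strand. Capitals mark E2F letters (TTTCCCGC, TTTGGCGC, TTTCGCGC or TTTGCCGC, on either strand) and CCAAT on either strand.
POLE2: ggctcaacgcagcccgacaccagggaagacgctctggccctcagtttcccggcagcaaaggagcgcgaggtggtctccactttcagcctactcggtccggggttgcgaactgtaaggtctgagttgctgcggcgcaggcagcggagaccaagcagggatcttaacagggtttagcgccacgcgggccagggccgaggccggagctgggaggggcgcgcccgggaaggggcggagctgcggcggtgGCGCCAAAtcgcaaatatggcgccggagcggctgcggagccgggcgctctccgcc
GMNN: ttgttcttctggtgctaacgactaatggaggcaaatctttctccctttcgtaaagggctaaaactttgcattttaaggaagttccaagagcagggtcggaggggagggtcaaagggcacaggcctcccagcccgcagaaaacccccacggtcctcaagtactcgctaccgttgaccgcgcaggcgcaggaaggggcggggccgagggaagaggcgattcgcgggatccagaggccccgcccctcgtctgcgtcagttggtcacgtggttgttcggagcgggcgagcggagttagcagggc
MCM2: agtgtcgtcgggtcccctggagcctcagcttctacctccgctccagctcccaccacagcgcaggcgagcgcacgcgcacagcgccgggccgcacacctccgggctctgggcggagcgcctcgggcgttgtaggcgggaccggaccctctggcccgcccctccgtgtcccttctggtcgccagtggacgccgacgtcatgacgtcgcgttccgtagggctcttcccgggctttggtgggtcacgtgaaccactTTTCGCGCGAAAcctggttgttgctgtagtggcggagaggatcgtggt
POLE: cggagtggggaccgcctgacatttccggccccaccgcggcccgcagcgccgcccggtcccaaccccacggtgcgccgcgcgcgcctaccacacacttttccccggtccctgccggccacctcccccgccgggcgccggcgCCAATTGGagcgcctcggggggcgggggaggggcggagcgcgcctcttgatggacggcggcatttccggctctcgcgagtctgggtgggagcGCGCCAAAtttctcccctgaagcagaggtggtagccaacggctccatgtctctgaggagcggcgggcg
POLE2 held 1 E2F match across the start, POLE 1 just before it with 2 overlapping CCAAT matches further out, and MCM2 2 overlapping E2F matches just after it. The GMNN window shown held none of these letters, while the window at another listed start of GMNN held 1 E2F and 2 CCAAT matches. The promoter with the largest fall and those with the highest differences thus both held E2F letters.

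Across the table, 45 of the 52 members had 1 or more windows, 61 in all. E2F letters stood in 25 of these 61 windows (41%), against 1164 of 35116 windows of all genes (3.31%). CCAAT, the site of the factor NF-Y, stood in 33 of 61 (54.1%) against 12155 of 35116 (34.6%). The letters TTTATG or TTTATA on either strand, the core of the CDX motif, stood in 5 of 61 windows (8.2%) against 6876 of 35116 (19.6%). The base composition of the windows was not compared. The 5 members with CDX letters were PRIM2, GINS3, TK1, CHAF1B and CDC45. Their median difference was -0.31 in the HCT116 pair, against -0.38 for the 40 members without them. In the LS174T pair these medians were 0.25 and 0.19. The 24 members with E2F letters had a median of -0.33 in the HCT116 pair and 0.24 in the LS174T pair, and the 21 without had -0.44 and 0.18. A match of letters describes the window and is not evidence of binding.

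The HCT116 pair, the array labelled HCT116-CDX1 and HCT116-Vec, bears on replication genes under the label of raised CDX1, which its CDX1 probe set did not show. They were lower there as a group: 47 of 52 lay below 0, beside 51% of the 16914 genes measured, and their median was -0.38, beside -0.01 for all genes measured. Few differences were large. Of the 52, 2 fell, POLE2 and GMNN (0.97% of all genes were at least 2-fold lower), and 0 rose (0.916% of all genes). At 1.5-fold the count was 13 lower, beside 6.11% of all genes, and 0 higher, beside 3.37%. More than the largest spike-in difference below 0 lay 27 members, beside 15.1% of all genes, and 0 lay as far above it, beside 9.54%. The differences ran from -1.16 to 0.24, with the central members between -0.56 and -0.20 (the quartiles).

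**Figure D1:**
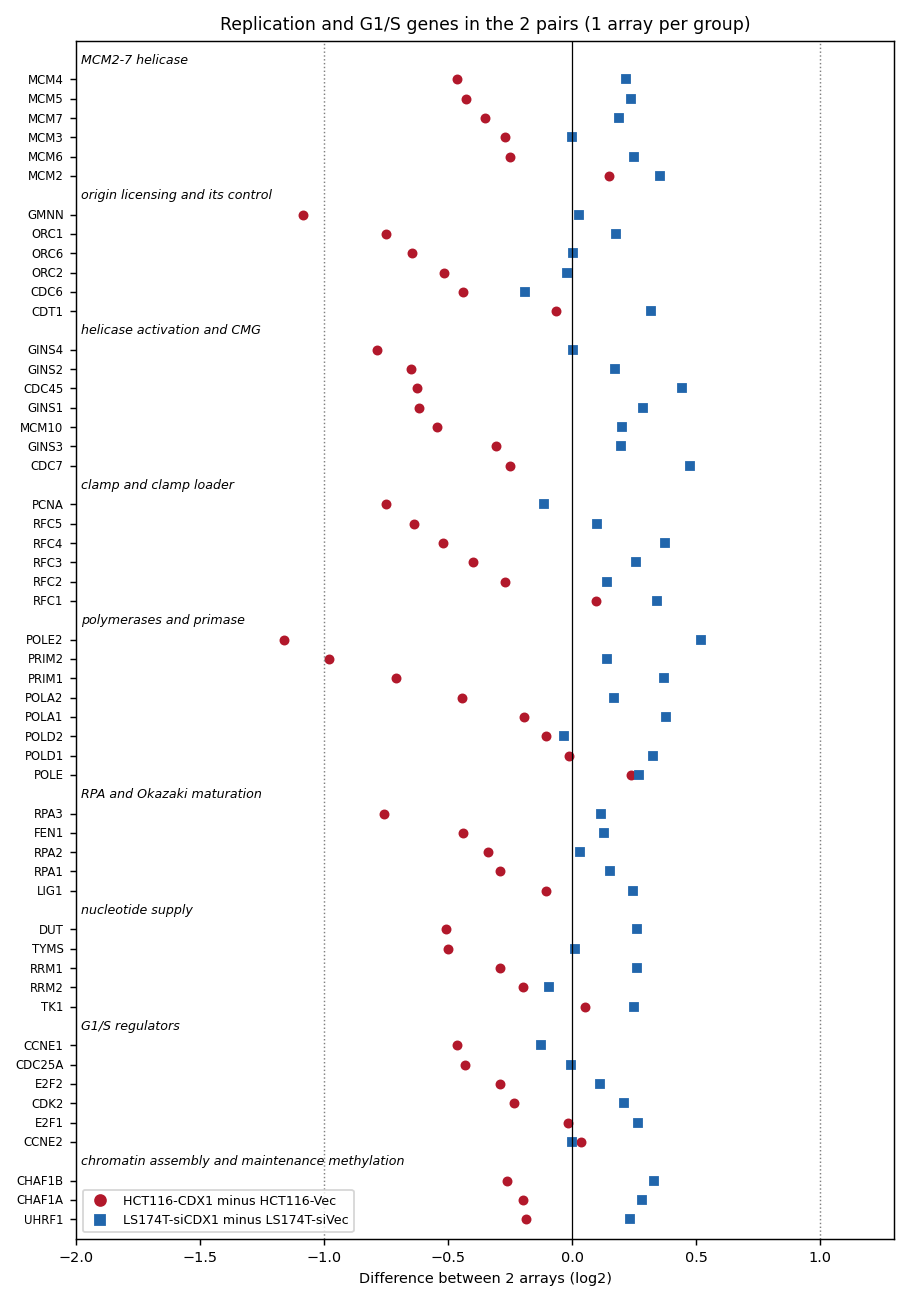
Differences of the 52 genes, grouped by role and sorted within each role by the HCT116 difference. The x axis is the log2 difference between 2 arrays, red circles are HCT116-CDX1 minus HCT116-Vec, blue squares LS174T-siCDX1 minus LS174T-siVec, and dotted lines mark 2-fold. Red points lie mostly below 0, with POLE2 at -1.16 and GMNN at -1.09 beyond the left line, and blue points mostly above 0.

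The polymerase and primase genes held the widest spread. POLE2, a small subunit of the leading-strand polymerase epsilon, read 9.43 on the array labelled HCT116-CDX1 and 10.60 on HCT116-Vec, a fall of 2.24-fold (-1.16). POLE, the catalytic subunit of the same enzyme, read 9.82 and 9.59 on these arrays, a difference of 0.24 that was the highest of all 52. The remaining subunit genes POLE3 and POLE4, looked up after these values were seen, differed by -0.64 and -0.32, so that the catalytic subunit stood alone above 0. Primase makes the RNA primers of both strands, and its genes lay low together. PRIM2 read 8.89 on the array labelled HCT116-CDX1 and 9.87 on HCT116-Vec (-0.98), just short of 2-fold, and PRIM1 read 9.98 and 10.69 (-0.71). The genes of the polymerase alpha subunits that carry primase were closer to 0, with POLA2 at -0.44 and POLA1 at -0.19. The other probe sets of POLA2 differed by -0.01 and 0.05. Polymerase delta, which copies the lagging strand, was nearest to 0, with POLD2 at -0.11 and POLD1 at -0.01, and with its remaining subunit genes, looked up after the values were seen, POLD3 at -0.10 and POLD4 at 0.18.

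Licensing genes were all 6 below 0, with a median of -0.58. GMNN, which encodes geminin, the inhibitor of CDT1, read 10.65 on the array labelled HCT116-CDX1 and 11.73 on HCT116-Vec, a fall of 2.12-fold (-1.09). It was read by 1 probe set, whose name marks it as shared between transcripts, and it differed by -0.97 once a loess on mean level had been taken out. CDT1, the loading factor that geminin holds in check, read 10.61 and 10.67 (-0.06), far from the geminin difference. ORC1, the ATPase subunit of the origin recognition complex whose level follows the cell cycle, read 7.86 and 8.61 (-0.75). ORC6 followed at -0.65, ORC2 at -0.52 and the loading ATPase gene CDC6 at -0.44. The loaded helicase itself was less shifted, with a median of -0.31 over the MCM2-7 genes. MCM4 was the lowest of these, at 10.88 on the array labelled HCT116-CDX1 and 11.34 on HCT116-Vec (-0.46), and its 5 probe sets all lay below 0. MCM2 was the exception, at 11.75 and 11.60 (0.15), while MCM3, MCM5, MCM6 and MCM7 lay between -0.43 and -0.25.

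The genes that turn the loaded helicase on were all 7 below 0, and their median of -0.62 was the lowest of the 9 role groups. GINS4, a subunit of the GINS complex, read 7.54 on the array labelled HCT116-CDX1 and 8.32 on HCT116-Vec (-0.79), and its other 3 probe sets differed by -0.40, -0.16 and 0.05. GINS2 was at -0.65, with another probe set at 0.40, and GINS1 at -0.62. CDC45, the helicase cofactor, read 8.56 and 9.18 (-0.62). MCM10 was at -0.54, GINS3 at -0.31 and the kinase gene CDC7 at -0.25, so the kinase lay nearest to 0 in this group.

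At the fork, the clamp and 4 of the 5 loader genes lay below 0. PCNA, the sliding clamp, read 12.16 on the array labelled HCT116-CDX1 and 12.91 on HCT116-Vec (-0.75). The small loader subunits ran in the order RFC5 at -0.64, RFC4 at -0.52, RFC3 at -0.40 and RFC2 at -0.27, and the large subunit RFC1 was at 0.10. The strand-binding protein RPA showed its lowest value in the small subunit RPA3, at 10.23 and 10.99 (-0.76), with RPA2 at -0.34 and RPA1 at -0.29. FEN1, the nuclease that trims Okazaki fragments, was at -0.44 and LIG1, the ligase that joins them, at -0.10.

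Nucleotide supply and the G1/S regulators were closer to 0. DUT, which clears dUTP, read 11.49 on the array labelled HCT116-CDX1 and 12.00 on HCT116-Vec (-0.51). TYMS, thymidylate synthase, was at -0.50, the ribonucleotide reductase genes RRM1 and RRM2 at -0.29 and -0.20, and thymidine kinase TK1 at 0.05. Cyclin E gene CCNE1 read 10.03 and 10.50 (-0.47), with its other probe set at 0.12, and the phosphatase gene CDC25A was at -0.43 with 3 probe sets below 0. CDK2, the partner of cyclin E, was at -0.23. CCNE2 was at 0.04, with its other probe set at 0.37, past the largest spike-in difference. The transcription factor genes themselves were near 0 or modestly below it, E2F1 at -0.02 and E2F2 at -0.29. The histone chaperone genes CHAF1B and CHAF1A and the methylation maintenance gene UHRF1 were at -0.26, -0.20 and -0.19.

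**Figure D2:**
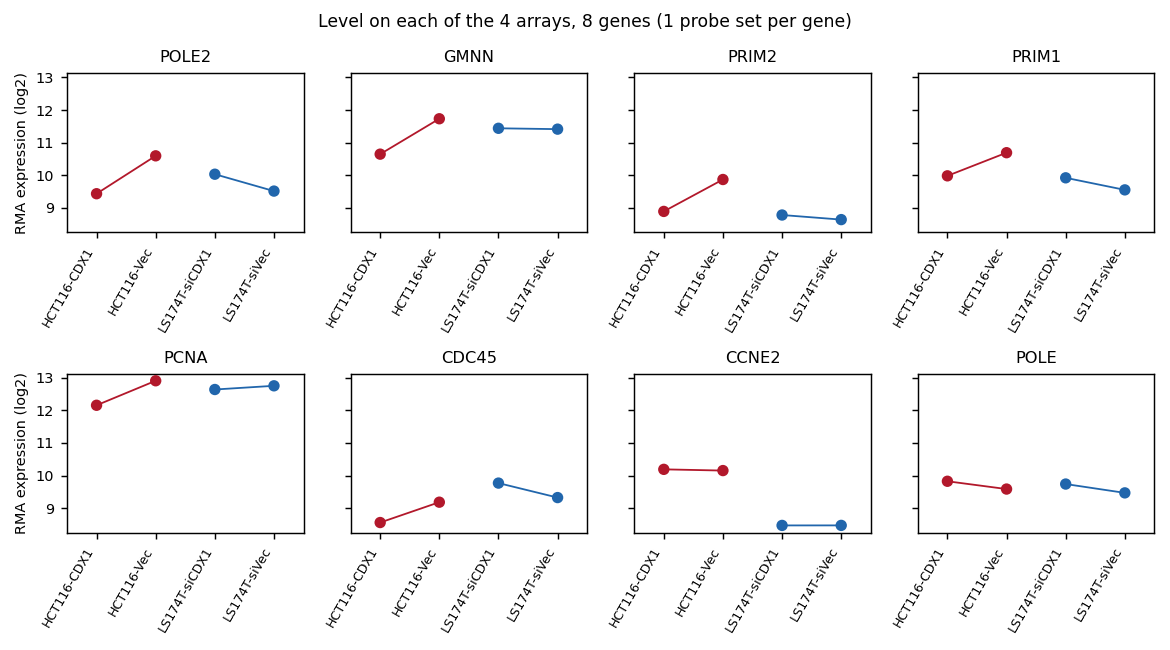
Levels of 8 genes on the 4 arrays. The y axis is RMA expression on the log2 scale, each point is 1 array, and a line joins the arrays of a pair (red HCT116, blue LS174T). POLE2 is lowest on HCT116-CDX1 at 9.43 and highest on HCT116-Vec at 10.60, while CCNE2 separates the lines, at 8.47 on both LS174T arrays against 10.19 and 10.15 on the HCT116 arrays.

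The LS174T pair, LS174T-siCDX1 and LS174T-siVec, bears on the same genes when CDX1 is reduced where it is normally present. They were slightly higher there: 44 of 52 lay above 0, beside 48.8% of the 16896 genes measured, and the median was 0.20, beside -0.01 for all genes measured. None reached 2-fold, as 0 rose (0.598% of all genes) and 0 fell (1.25%), and 0 differed by 1.5-fold in either direction, beside 1.72% higher and 3.24% lower over all genes. More than the largest spike-in difference above 0 lay 30 members, beside 18.8% of all genes, and 1 lay as far below, beside 20.9%. The differences ran from -0.19 to 0.52. Of the 4 measured leukocyte markers, LYZ (0.49), PTPRC (0.34) and CD3E (0.24) were higher on the same array, and CD2 was at -0.05. PTPRC lay near the floor of 6, at 6.85 on LS174T-siCDX1 and 6.51 on LS174T-siVec. Averaged over every probe set of the gene, PTPRC differed by 0.12 and LYZ by 0.60. The part of these markers in the result was not tested. After quantile normalization of the 4 arrays the median was 0.28 and 4 members lay below 0.

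POLE2 led this comparison too, at 10.03 on LS174T-siCDX1 and 9.51 on LS174T-siVec (0.52). The kinase gene CDC7 read 9.68 and 9.20 (0.48), and CDC45 read 9.77 and 9.32 (0.44). All 7 genes of helicase activation lay above 0, with GINS4 at 0.00, and the MCM2-7 genes did so as well, from MCM3 at 0.00 to MCM2 at 0.36. MCM2 read 11.92 on LS174T-siCDX1 and 11.57 on LS174T-siVec. Among the polymerases, POLA1 was at 0.38, PRIM1 at 0.37, POLD1 at 0.33, POLE at 0.27 and PRIM2 at 0.14, with the group median at 0.30. The loader genes RFC4, at 11.05 and 10.68 (0.38), and RFC1, at 9.79 and 9.45 (0.34), stood highest at the fork, above RFC3 at 0.26, LIG1 at 0.24 and RPA1 at 0.15. CHAF1B read 8.74 and 8.41 (0.33), and CHAF1A and UHRF1 were at 0.28 and 0.23.

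Licensing and the G1/S regulators were closest to 0 in the LS174T pair, with medians of 0.01 and 0.06. CDT1 read 10.68 on LS174T-siCDX1 and 10.36 on LS174T-siVec (0.32), and GMNN read 11.44 and 11.41 (0.03), so the licensing factor and its inhibitor differed unequally here as well. CDC6 was the lowest of all 52, at 10.14 and 10.33 (-0.19), and its other probe set differed by -0.15. The 7 members below 0 besides it were CCNE1 at -0.13, PCNA at -0.11, RRM2 at -0.09, POLD2 at -0.03, ORC2 at -0.02 and the near-zero CDC25A and CCNE2. PCNA, low on the array labelled HCT116-CDX1, thus did not stand higher with CDX1 lowered, at 12.64 on LS174T-siCDX1 and 12.75 on LS174T-siVec. E2F1 read 9.79 and 9.52 (0.27), DUT 12.24 and 11.98 (0.26), RRM1 was at 0.26 and TK1 at 0.25. The other probe sets of DUT differed by 0.74, which is past 1.5-fold, and by 0.39.

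The pairs share no array and could be set beside each other. Of the 52 members, 40 lay below 0 on the array labelled HCT116-CDX1 and above 0 on LS174T-siCDX1, a combination that held 23.2% of the 16530 genes measured in both pairs. Beyond the largest spike-in difference in both pairs, this combination held 13 members (2.48% of all genes): CDC45, DUT, GINS1, GINS2, MCM10, MCM4, MCM5, MCM7, ORC1, POLE2, PRIM1, RFC3 and RFC4. As means of their probe sets, MCM4 (-0.33), MCM5 (-0.32), RFC3 (-0.31) and GINS2 (-0.09) lay within that limit in the HCT116 pair. MCM7 passed narrowly in the HCT116 pair (-0.352 against 0.349), and so did ORC1 in the LS174T pair (0.178 against 0.170). MCM2, POLE, RFC1 and TK1 lay above 0 in both pairs (25.3% of all genes), and CCNE1, CDC25A, CDC6, ORC2, PCNA, POLD2 and RRM2 below 0 in both (28%). CCNE2 alone had the remaining combination (23.5%). The markers of colorectal epithelium had the reverse arrangement. On the array labelled HCT116-CDX1 their median was 0.30 with 9 of 10 above 0, beside 49% of all genes. Of these markers 5 passed the largest spike-in difference there, and 1 rose, beside 0.916% of all genes. It was CDH17, at 7.49 against 6.19 on HCT116-Vec (1.31), the latter close to the floor of 6. On LS174T-siCDX1 the median was -0.94 with 10 of 10 below 0, beside 51.2% of all genes. The list includes CDX1 itself, at 0.02 and -1.40, and its lower level on LS174T-siCDX1 is what that label states. The part of the markers in the result was not tested.

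**Figure D3:**
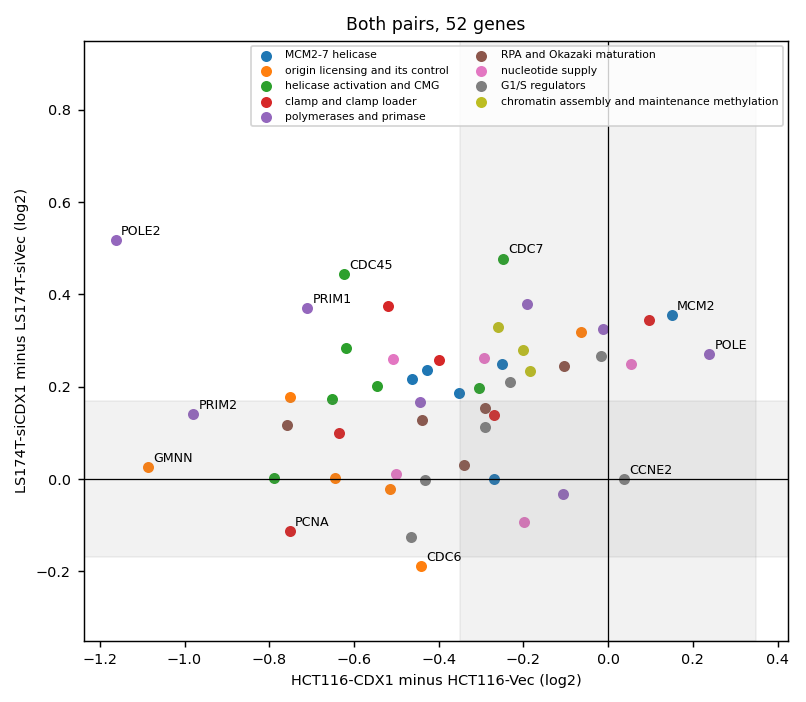
The 52 genes in both pairs. The x axis is HCT116-CDX1 minus HCT116-Vec and the y axis LS174T-siCDX1 minus LS174T-siVec, both in log2, colours mark the role groups, and grey bands span the largest spike-in difference of each pair (0.35 and 0.17). Most points, 40 of 52, lie in the upper left, with POLE2 outermost, and CDC6 is the lowest point.

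All 4 arrays were also fitted with limma over 17280 genes, with terms for line and for CDX1 label, which uses the lines as the pairs and leaves 1 residual degree of freedom. For the arrays named as CDX1-higher (the array labelled HCT116-CDX1 and LS174T-siVec) minus the CDX1-lower ones, 51 of 52 member effects lay below 0. Each effect is the mean of the 2 pair differences, taken as CDX1-higher minus CDX1-lower. The count thus follows from the pair values above and adds no independent support. Only 40 of the 52 lay in that direction in both pairs, and the share over all genes was not computed. With Benjamini-Hochberg adjustment limma called 0 members (0% of all genes in either direction). The adjusted p of each member was 0.999. At an unadjusted p under 0.05 limma gave 5 members lower, beside 1.23% of all genes, and 0 higher, beside 1.77%. They were POLE2 at -0.84 (SE 0.211), PRIM1 at -0.54 (SE 0.166), CDC45 at -0.53 (SE 0.152), GINS1 at -0.45 (SE 0.166) and RFC4 at -0.45 (SE 0.149). The shared shift of the members is thus a description of these arrays and did not pass the test gene by gene.

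Other genes of the same pathway, from a list of 50 with 49 read, lay between the members and all genes. On the array labelled HCT116-CDX1, 36 of 49 lay below 0, beside 51% of all genes, with a median of -0.19. Of them 1 fell, beside 0.97% of all genes, and 0 rose, beside 0.916%. The gene that fell was TIPIN, of the fork protection complex, at 8.89 against 9.93 on HCT116-Vec (-1.04), while its partner TIMELESS was at -0.26. On LS174T-siCDX1, 34 of 49 lay above 0, beside 48.8% of all genes, with a median of 0.07 and 0 changed. The largest of those differences were CDCA7 at -0.48, DTL, the adaptor that marks CDT1 for destruction, at 0.47, and MCM9 at -0.42. A list of 25 mitosis genes was further from 0 than the members in the HCT116 pair, with a median of -0.63 and all 25 below 0. Those that fell were AURKA (-1.22), BUB1 (-1.16) and CDC20 (-1.12), beside 0.97% of all genes. As means of their probe sets AURKA was at -0.85 and BUB1 at -0.53, short of 2-fold. In the LS174T pair its median was 0.25 with 24 of 25 above 0 and 0 changed, with CENPF at 0.56, KIF11 at 0.40 and ESPL1 at 0.38 as the largest. The difference between the lists was not tested.

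**Figure D4:**
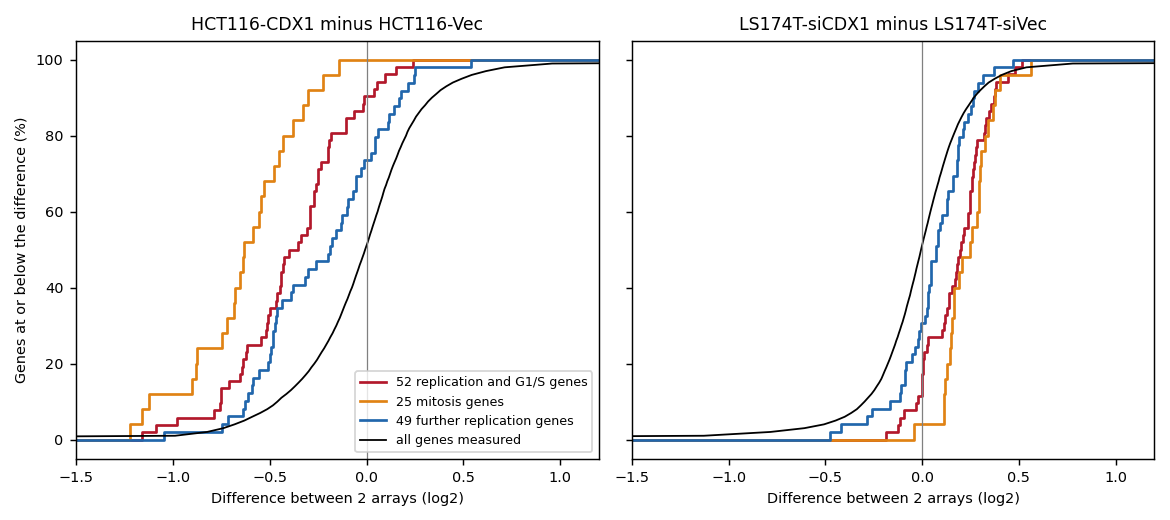
Cumulative share of genes against the log2 difference between 2 arrays, with HCT116-CDX1 minus HCT116-Vec on the left and LS174T-siCDX1 minus LS174T-siVec on the right. Lines stand for the 52 replication and G1/S genes, 25 mitosis genes, 49 further replication genes and all genes measured. The medians run from -0.63 (mitosis) through -0.38 and -0.19 to -0.01 (all genes) on the left, and from 0.25 through 0.20 and 0.07 to -0.01 on the right.

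The vector arrays were compared to show how the lines differ without the modification of CDX1. The titles give siVec for LS174T and Vec for HCT116, so line and vector cannot be told apart here. This comparison shares LS174T-siVec and HCT116-Vec with the pairs above, so its values are not independent of theirs. In LS174T-siVec 36 of 52 members lay below their HCT116-Vec level, beside 49.2% of the 17043 genes measured, and the median was -0.22, beside 0.01 for all genes measured. Of the members 4 fell, beside 7.33% of all genes, and 0 rose, beside 6.03%, so the share of members changed was no larger than the background. At 1.5-fold 8 members were lower, beside 14.3% of all genes, and 2 higher, beside 12.2%. Past the largest spike-in difference lay 15 members lower (21.9% of all genes) and 6 higher (19.7%).

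The members that fell were a cyclin and 3 genes of the polymerase and primase group. CCNE2, cyclin E2, read 8.47 on LS174T-siVec and 10.15 on HCT116-Vec, a fall of 3.21-fold (-1.68), and its other probe set differed by -1.36. PRIM2 read 8.64 and 9.87 (-1.23), PRIM1 9.55 and 10.69 (-1.14) and POLE2 9.51 and 10.60 (-1.08). The other cyclin E gene, CCNE1, read 9.60 on LS174T-siVec and 10.50 on HCT116-Vec (-0.90), with its other probe set at -0.03. RFC5 read 9.93 and 10.88 (-0.95), and RRM1 10.75 and 11.61 (-0.85). RPA2 was at -0.59, MCM10 at -0.57 and ORC6 at -0.44, the lowest of their role groups. Licensing, the clamp with its loader, and nucleotide supply were below 0 in every member, with medians of -0.32, -0.21 and -0.28.

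Other members stood higher in LS174T-siVec. POLD2, the accessory subunit of polymerase delta, read 11.29 on LS174T-siVec and 10.48 on HCT116-Vec (0.80). POLA2 read 9.42 and 8.69 (0.73), and its other probe sets differed by 0.18 and 0.16. MCM7 read 12.16 and 11.68 (0.47), E2F1 9.52 and 9.06 (0.46), CHAF1A 9.41 and 8.97 (0.43) and RPA3 11.40 and 10.99 (0.41). Subunits of 1 enzyme thus differed between the lines in opposite directions, as with POLA2 against PRIM1 and PRIM2, which form the polymerase alpha and primase complex. Of the 49 further pathway genes read 2 fell, RRM2B (-2.31) and E2F3 (-1.14), beside 7.33% of all genes. Of the 25 mitosis genes 4 fell, TTK (-1.52), KIF23 (-1.39), CDC20 (-1.18) and BUB1 (-1.08). As means of their probe sets E2F3 was at -0.68, KIF23 at -0.64 and BUB1 at -0.49, short of 2-fold.

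**Figure D5:**
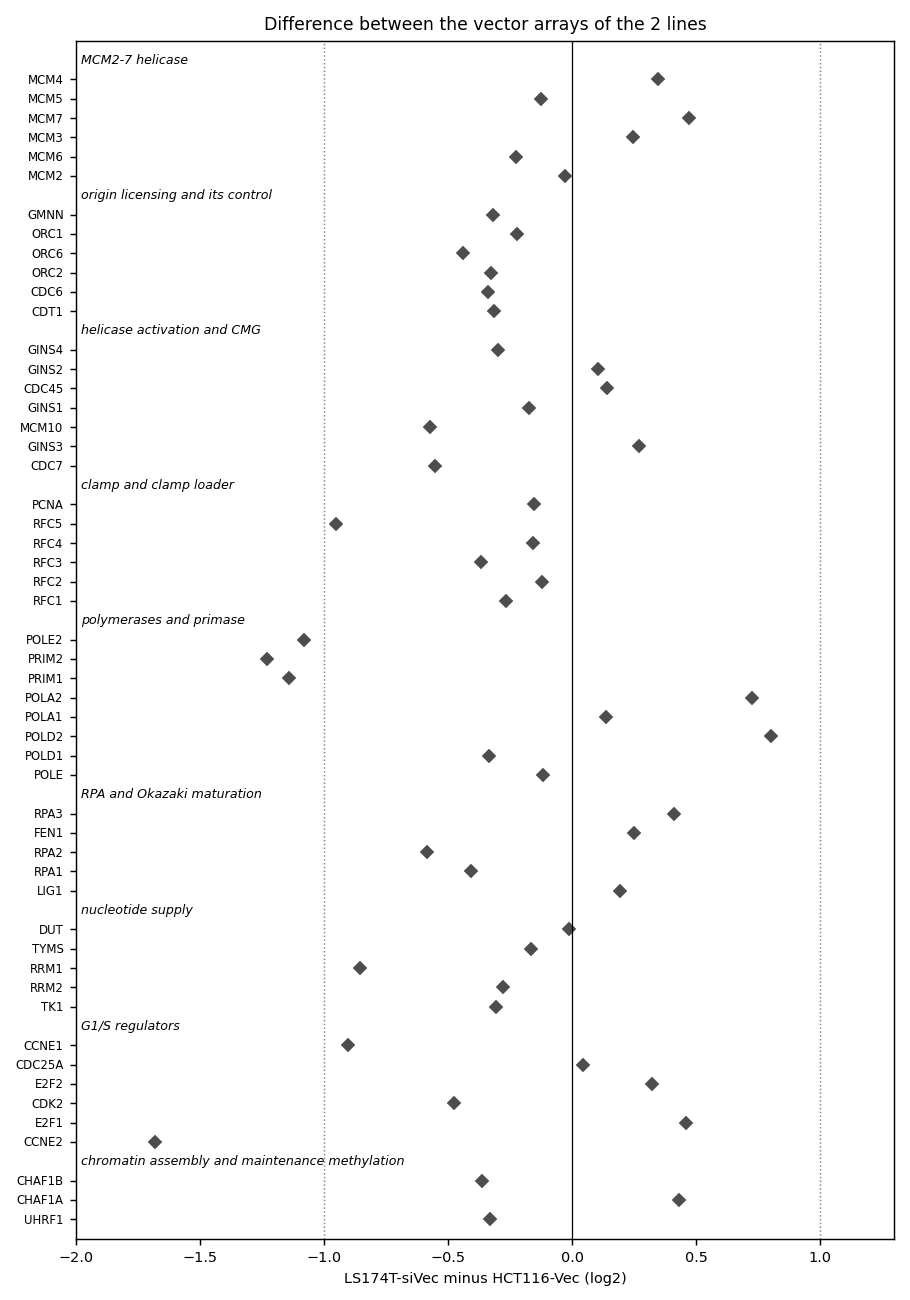
LS174T-siVec minus HCT116-Vec for each of the 52 genes, grouped by role. The x axis is the log2 difference between the 2 arrays and dotted lines mark 2-fold. CCNE2 at -1.68, PRIM2 at -1.23, PRIM1 at -1.14 and POLE2 at -1.08 lie beyond the left line, and POLD2 at 0.80 is the highest.

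The cell line term of the limma fit set both LS174T arrays against both HCT116 arrays, which differ in CDX1 label and are not replicate cultures. Line and the type of construct named in the titles cannot be told apart in this term. Limma called 5 members after Benjamini-Hochberg adjustment, 1 lower (8.73% of all genes) and 4 higher (7.37%). The share of members called higher was thus near that of all genes, and the share called lower was under it. At an unadjusted p under 0.05 limma gave 6 members lower, beside 16.3% of all genes, and 13 higher, beside 14.7%. CCNE2 was lower by limma at -1.70 (SE 0.146, adjusted p 0.00551), with each LS174T array below each HCT116 array. POLA2 was higher by limma at 1.03 (SE 0.16, adjusted p 0.0219), POLD2 at 0.84 (adjusted p 0.03), MCM7 at 0.74 (adjusted p 0.0417) and CHAF1A at 0.67 (adjusted p 0.0497). CCNE2 and POLD2 were called under each of the 8 alternatives run. POLA2 and CHAF1A were not called with the mean of probe sets, and POLA2 was not called without shared probe sets. MCM7 and CHAF1A could not be judged without shared probe sets. MCM7 had only shared ones, and the unshared probe set of CHAF1A lay under the floor of 6 on every array. CHAF1A was also not called with a floor of 7 or an intensity trend. PRIM1, PRIM2 and POLE2, which fell between the vector arrays, did not pass, with limma adjusted p of 0.0851, 0.155 and 0.528. The array labelled HCT116-CDX1 read close to LS174T for these, with POLE2 at 9.43 there and at 10.03 and 9.51 in LS174T.

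Agreement between probe sets gave a further view of the members. They were covered by 101 probe sets, and 30 members had several. In the HCT116 pair 85 of 98 measured probe sets lay below 0, with a median of -0.30, and 22 of the 30 members had the same sign in each. In the LS174T pair 83 of 99 lay above 0, with a median of 0.20, and 23 of 30 members had the same sign in each. Between the vector arrays 64 of 98 lay below 0, and 25 of 30 members had 1 sign. Probe sets of a gene share the RNA of 1 array and are not replicates. The same shares over the probe sets of all genes were not computed, so these counts have no background beside them.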

How the data were processed

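Each of the 4 modified lines had 1 array, and groups follow the sample titles. Per the labels' protocols, RNA was extracted with RNeasy and labelled as biotin cRNA from 2 µg of total RNA. Per the submitters' processing notes the authors used RMA, and the deposited values are log2 expression of 54675 probe sets; its version is not given in the sources used here, nor are the arrays it normalised jointly. Of the probe sets 41097 had 1 gene in the platform annotation, 1801 several and 11777 none listed there.

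Genes were read from the probe set with the highest mean. Differences, medians and counts were computed with Python 3.11.15, pandas 2.3.3 and statsmodels 0.14.6, and the 4-array fit with limma 3.58.1 in R 4.3.3, at an adjusted p under 0.05. Both were run on simulated data as a check of the code. For the 2-fold count the noise was clipped and the planted shifts lay well past the threshold. Its outcome was thus fixed in advance and says nothing of the accuracy in these data. The gene lists and members were chosen with earlier results of these data known. Alternatives were the mean of probe sets, no shared probe sets (names ending in _x_at or _s_at), no floor, a floor of 7, quantile normalization, a median of 0, a loess (span 0.3), 1.5-fold and 3-fold thresholds and other limma settings. Values on each array were given for members that changed, the 6 highest and 6 lowest of each comparison and the most shifted of each role. Some further members and probe sets were named after their values were seen. Promoters were read from RefSeq windows (GRCh38.p14), for the 2 lowest and 2 highest members of the HCT116 pair.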

Additional observations from a re-analysis of the deposited data

Results flagged for a closer look

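Among 126 genes of the member, further pathway and mitosis lists measured in both pairs, 3 genes (2.38%) had opposite signs in the 2 lines for the arrays named as CDX1-higher minus CDX1-lower, with each difference beyond the largest spike-in difference of its pair. Over all 16530 genes measured in both pairs 1001 did so (6.06%). Of the 3, CDC6 alone belongs to the 52. Its difference was -0.44 in HCT116 and 0.19 in LS174T. The origin recognition gene ORC5 had -0.59 in HCT116 and 0.26 in LS174T. CDCA7, a chromatin factor induced in S phase, had -0.56 in HCT116 and 0.48 in LS174T. With 1 array per group these differences between the lines were not tested, and the HCT116 direction rests on the label.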

How the results depend on the processing

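The median and the number of members below 0 kept their side of 0 in all 3 comparisons under the 7 settings of probe set, floor and normalization tried, and moved past the spread of the spike-in probe sets or by over 1.5 times only after quantile normalization of the LS174T pair, where the median was 0.28 and 4 members lay below 0. Members at least 2-fold lower on the array labelled HCT116-CDX1 numbered 1 without shared probe sets, where 42 members were read, 1 with the loess removed, 13 at 1.5-fold and 0 at 3-fold. Between the vector arrays 8 were lower and 2 higher at 1.5-fold, and 1 was lower at 3-fold. With the threshold at the largest spike-in difference, added after the data were seen, 27 members were lower in the HCT116 pair, 30 higher and 1 lower in the LS174T pair, and 6 higher and 15 lower between the vector arrays. The limma cell line term called 9 members after quantile normalization, and the cause was not tested. The limma fit took each cell line as a pair, and the labels give no replicate numbers for a further block. Without the cell line term that fit also called 0 members for the CDX1 label, with 1 at an unadjusted p under 0.05. Leaving out an array would leave 1 cell line without its pair. All members were above the floor of 6 on every array. The results are limited by 1 array per group and, for HCT116, by a label that the CDX1 probe set did not bear out.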

Other observations

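The genes of the retinoblastoma family, which hold E2F factors in check, were not among the genes that changed. RB1 differed by -0.05 on the array labelled HCT116-CDX1 against HCT116-Vec and by -0.05 on LS174T-siCDX1 against LS174T-siVec. RBL1 differed by 0.11 and 0.03 in these pairs. RBL2, which encodes p130, the family member that is high in resting cells, read 9.51 on the array labelled HCT116-CDX1 and 8.97 on HCT116-Vec (0.54), and it was the highest of the further pathway genes there. In the LS174T pair RBL2 differed by 0.16. Of the repressor genes, E2F7 was at 0.25 in either pair, and E2F8 was at -0.18 for HCT116 and at -0.28 for LS174T. CDK6, a G1 kinase, was at -0.75 in the HCT116 pair and -0.01 in the LS174T pair, and CDK4 at -0.16 and -0.02.

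Across the 52 members the differences of the pairs were weakly related, with Pearson r of 0.15 and Spearman rho of 0.25, as a description over genes that share the same 4 arrays. Pearson r over the 16530 genes measured in both pairs was -0.0065.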
